A study of Sus scrofa with 16 samples.

Results

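C14H10orf10, FOXO1, FOXO3, PDK4, IRS2, DDIT4 and TXNIP, a group of genes tied to the FOXO transcription factors and to fasting, were read in colonic mucosa and liver of pigs fed potato or corn starch. The 7 genes had 30 probes among the 43603 of the array, on which 6799 genes had a symbol. C14H10orf10 was chosen by its measured diet difference in the colon, and the other 6 genes by their link to FOXO factors. The colonic diet difference of C14H10orf10 is therefore given as a description with no test. A search by gene symbol found 27 of the 30 probes, for 5 of the 7 genes. The single C14H10orf10 probe carries no symbol in the array files and was reached through its mRNA accession in the RefSeq table. The single IRS2 probe and the last of 10 PDK4 probes were reached only through the product named in their description, and their identity is less certain for that reason.

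The animals were Duroc × Landrace × Large White barrows, which entered the trial at 70 days of age and were housed with 3 pigs per pen. The CS group ate a corn and soybean diet with 230 g/kg of purified corn starch, raised to 280 g/kg at 120 days of age, and in the RPS group raw potato starch took its place at the same amounts. The pigs were slaughtered after 100 days, at 170 days of age. Feed was withheld before slaughter in both groups, and no fed animals were analysed here. Mucosa was scraped from the proximal colon, and liver was taken from the same diets, with 4 arrays for each of Colon CS, Colon RPS, Liver CS and Liver RPS. Each group lay on a slide of its own, and slide and group cannot be told apart in any comparison of diets or tissues.

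FOXO1 and FOXO3 are forkhead transcription factors. When insulin is low they stay in the nucleus and switch on genes that spare glucose, and when insulin is high they are phosphorylated by AKT and leave it, so that their activity need not follow their mRNA. PDK4 is a kinase that shuts off pyruvate dehydrogenase during fasting, IRS2 is an adaptor of the insulin receptor, DDIT4 restrains mTORC1, and TXNIP binds thioredoxin and limits glucose uptake. C14H10orf10, also called DEPP1, is a FOXO-responsive gene of fasting and progesterone-treated tissues.

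Each probe is a DNA strand of 60 bases, printed 5′ to 3′ from the array files. The C14H10orf10 and IRS2 probes are shown because each gene rests on 1 sequence, and FOXO1 A_72_P441344, PDK4 A_72_P576424, DDIT4 A_72_P230427 and TXNIP A_72_P549696 because they are the brightest of their genes. PDK4 A_72_P561949 and TXNIP A_72_P585156 are shown beside them for their overlap. In the PDK4 and TXNIP pairs the capitals mark the run of bases that both probes of a pair share, 19 in PDK4 and 55 in TXNIP, so that overlapping probes are not separate readings of a transcript. The 2 DDIT4 probes printed in capitals on 1 line have the same sequence throughout.
C14H10orf10 A_72_P001551: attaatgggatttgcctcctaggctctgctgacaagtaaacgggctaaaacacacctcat
IRS2 A_72_P382643: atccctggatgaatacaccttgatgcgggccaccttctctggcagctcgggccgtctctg
FOXO1 A_72_P441344: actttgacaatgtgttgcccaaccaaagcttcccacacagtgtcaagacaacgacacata
PDK4 A_72_P561949: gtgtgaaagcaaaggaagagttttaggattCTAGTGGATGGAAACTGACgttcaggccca
PDK4 A_72_P576424: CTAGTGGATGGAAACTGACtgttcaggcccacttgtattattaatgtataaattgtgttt
DDIT4 A_72_P230427 and A_72_P577733: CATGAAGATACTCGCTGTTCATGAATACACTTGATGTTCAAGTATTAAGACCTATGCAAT
TXNIP A_72_P549696: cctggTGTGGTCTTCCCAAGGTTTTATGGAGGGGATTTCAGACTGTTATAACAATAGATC
TXNIP A_72_P585156: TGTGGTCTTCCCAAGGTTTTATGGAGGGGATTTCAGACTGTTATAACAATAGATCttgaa

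In the pig assembly Sscrofa11.1, C14H10orf10 lies on chromosome 14 from 91118332 to 91120242, and DDIT4 on the same chromosome from 75117708 to 75119907. FOXO1 lies on chromosome 11 from 15317222 to 15410059 and IRS2 further along it, from 76626158 to 76654639. FOXO3 is on chromosome 1 from 74626673 to 74760323, PDK4 on chromosome 9 from 75246956 to 75260134, and TXNIP on chromosome 4 from 99348589 to 99351760. These are gene positions from RefSeq, and where a probe falls within its gene was not analysed here.

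Apart from 2 PDK4 probes, every probe of the 7 genes exceeded background clearly on each of the 16 arrays, and no array had a saturated spot. Before adjustment between arrays, the median signal of a colonic array was 56.3 to 70.8 in the CS group and 34.2 to 42.5 in the RPS group. Of the hepatocyte markers measured, 6 of 6 were higher in liver, and of the epithelial markers 7 of 8 were higher in colon (adjusted p under 0.05 by limma for each). The hepatocyte markers CYP2E1 and TTR exceeded background clearly on no colonic array, while APOA1, SERPINA1 and TF did so on all 8. The epithelial markers CDX2, KRT20 and SLC26A3 exceeded it clearly on no hepatic array, while the others measured did so on all 8.

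The colonic arrays CS replicate 3 and RPS replicate 2, on different slides, stood apart from the other 6. The mean level of 8 epithelial markers of 9 listed, relative to the colonic mean on the log2 scale, was -1.71 and -1.02 on them and 0.17 to 0.65 on the others. The mean level of 3 B cell markers of 4 listed was 3.22 and 2.88 on them and -2.92 to 0.96 on the others. Each of these markers exceeded background clearly on the 8 colonic arrays. In tissue samples, fewer cells of a type and less RNA per cell cannot be told apart.

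The signal of C14H10orf10 in the colon was higher on every RPS array than on any CS array. On the log2 scale after quantile normalization, the CS arrays held 8.70, 8.42, 6.17 and 8.34 and the RPS arrays 11.19, 10.02, 9.14 and 10.07 for replicates 1 to 4. The means were 7.91 ± 1.17 (SD, n = 4) and 10.11 ± 0.84 (SD, n = 4), a difference of 2.20 or 4.59-fold. The difference was the 61st in size among the 43603 probes of the colon, where 2.94% of probes passed both an unadjusted p under 0.05 and a fold above 1.5. This is the contrast by which the gene was chosen, and nothing is read from it.

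CS replicate 3, which held the lowest epithelial marker level, also held the lowest C14H10orf10 signal. Without it the difference was 1.63, and without it and RPS replicate 2 it was 1.66. The unadjusted scanner signals were 508, 396, 104 and 456 in the CS group and 2035, 906, 384 and 822 in the RPS group, so that RPS replicate 3 lay within the range of the CS arrays before normalization. The smooth muscle marker level also separated the diets in the colon (4 genes of 6 listed, 0.04 to 0.28 in CS and -0.41 to -0.04 in RPS), and its part in the result was not tested.

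In the liver, C14H10orf10 did not separate the diets. The CS arrays held 5.01, 5.62, 6.59 and 5.20, and the RPS arrays 8.35, 5.17, 6.06 and 8.44. RPS replicates 1 and 4 lay above all CS arrays, while the other 2 lay among them. The diet difference was 1.40 (SE 0.81, adjusted p = 0.754 by limma), with a 95% interval from -0.49 to 3.29. Without RPS replicate 2 the difference was 2.01 and passed the unadjusted p and the fold (adjusted p = 0.648), whereas without RPS replicate 4 it was 0.92 and with normexp 0.87. T cell marker levels, 4 genes of 4 listed, ran from -0.49 to 0.00 in CS and from -0.72 to 1.14 in RPS liver, with 1.14 on RPS replicate 4 and -0.12 on RPS replicate 1. The smooth muscle level was highest on the RPS arrays with high C14H10orf10, at 0.46 on replicate 1 and 0.35 on replicate 4, against -0.58 to 0.19 on the other 6. The part of either was not tested.

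**Figure D1:**
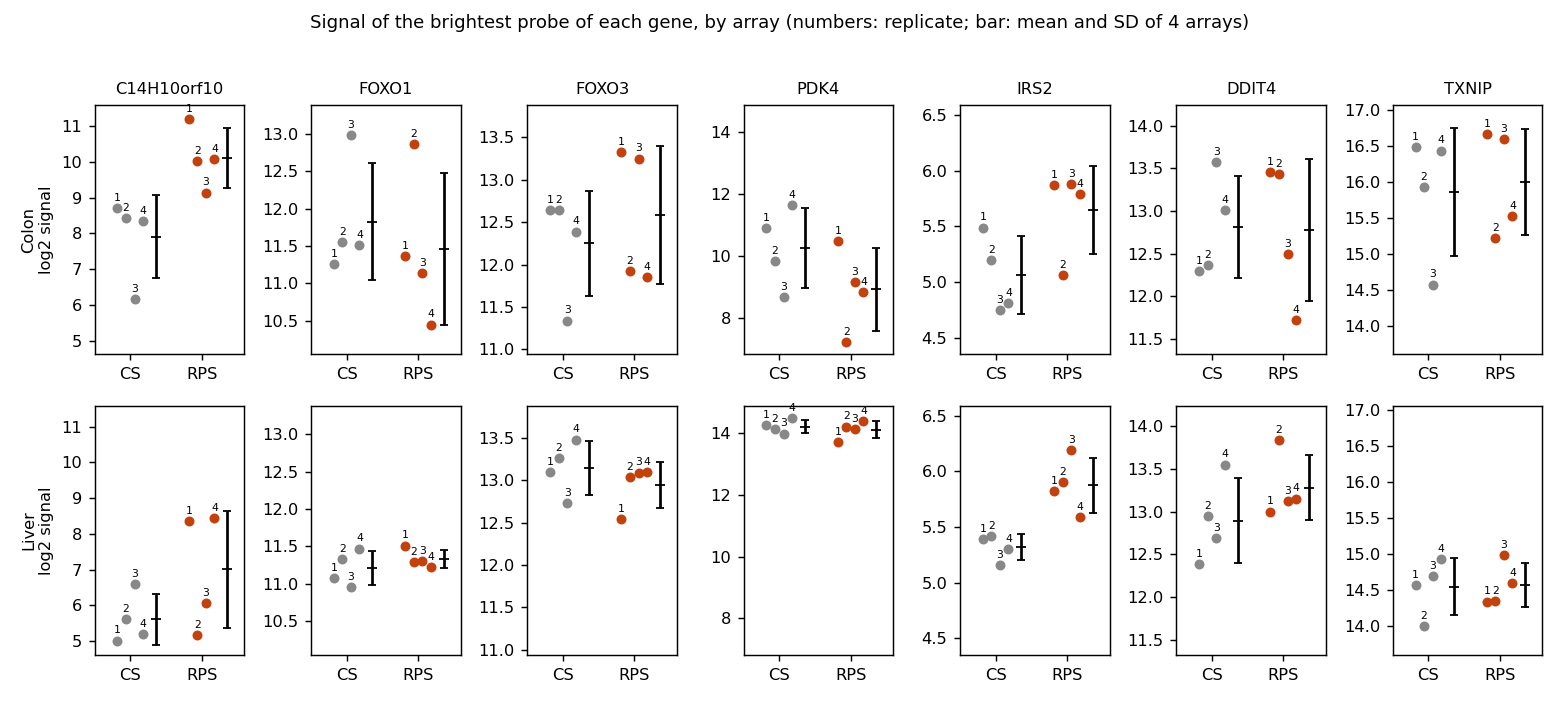
Log2 signal (vertical axes) of the brightest probe of each of the 7 genes in the CS and RPS groups, in colon (top row) and liver (bottom row), on the same scale for both tissues of a gene. Points are arrays with their replicate number, and bars give the mean and SD of 4 arrays. The diets do not overlap for colonic C14H10orf10, at 6.17 to 8.70 in CS and 9.14 to 11.19 in RPS, nor for hepatic IRS2, at 5.16 to 5.42 and 5.59 to 6.19, and colonic PDK4, FOXO1 and TXNIP spread far more than the same genes in liver.

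None of the other 29 probes passed both thresholds for diet in the colon, and none of the 30 did in the liver, where 3.56% of all probes did. With so few probes, counts of 0 lie near these backgrounds. By limma, no probe of the array had an adjusted p under 0.05 in the colon and 1 did in the liver, against 2362 and 3309 with p under 0.05 before adjustment. With all 16 arrays in 1 fit, 39 colonic and 4 hepatic probes did, and without colonic RPS replicate 2, 8 colonic probes did. Among the 30 probes of the 7 genes, the IRS2 probe in the liver was the one with an unadjusted p under 0.05 (0.00423), C14H10orf10 in the colon being left aside.

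The FOXO factors did not pass the test in either tissue. At the brightest FOXO1 probe, the colonic CS arrays held 11.26, 11.55, 12.98 and 11.51 and the RPS arrays 11.36, 12.86, 11.14 and 10.45. The highest value in each group came from one of the arrays with high B cell markers, and the groups overlapped. The diet difference was -0.37 (SE 0.59, adjusted p = 0.992), with an interval from -1.75 to 1.00. The other 2 FOXO1 probes gave -0.46 and -0.06. In the liver, the 8 values of the brightest probe lay between 10.96 and 11.51 and the 3 probes differed by -0.12 to 0.12. The 3 probes moved together over the 8 colonic arrays (Pearson's r 0.89 to 0.99) but not over the hepatic ones (-0.07 to 0.85), where the spread to follow was small.

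FOXO3 is the other forkhead factor. In the colon its brightest probe held 12.64, 12.64, 11.34 and 12.39 in CS and 13.33, 11.92, 13.25 and 11.85 in RPS. CS replicate 3 was the lowest of all 8, RPS replicates 4 and 2 followed it, and the groups overlapped. It differed by 0.34 between the diets (SE 0.47, adjusted p = 0.988). In the liver, the 2 probes were lower in RPS by values too small to pass (-0.20 and -0.13, adjusted p = 0.852 and 0.857).

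IRS2, the insulin receptor adaptor, was the member with the clearest separation in the liver. The CS arrays held 5.39, 5.42, 5.16 and 5.30 and the RPS arrays 5.82, 5.90, 6.19 and 5.59, so that every RPS array lay above every CS array. The RPS mean was higher by 0.56 (SE 0.14), a 1.47-fold difference with an interval from 0.24 to 0.88. The exact two-sided permutation p was 0.0286, the smallest that 4 arrays against 4 allow. Values unrelated to diet separate in this way at that rate, so that 1 separating probe among 30 lies near it. How many of all probes separated the diets was not counted. The adjusted p of IRS2 over all probes was 0.416 by limma, and its fold lay just under the threshold of 1.5. Without CS replicate 2 or without RPS replicate 4 it passed both thresholds, at 0.59 and 0.65, whereas with normexp background correction the difference was 0.17. The endothelial marker level separated the diets in the liver in the other direction (7 genes of 10 listed, 0.04 to 0.12 in CS and -0.25 to -0.01 in RPS), and its part was not tested.

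In the colon, IRS2 held 5.49, 5.20, 4.75 and 4.81 in CS and 5.87, 5.06, 5.88 and 5.79 in RPS. The RPS array among the CS values was replicate 2, with high B cell markers. RPS minus CS was 0.59 (SE 0.25, adjusted p = 0.919). It passed both thresholds without RPS replicate 2 (0.78, adjusted p = 0.394), without CS replicate 1 (0.73), without both arrays that stood apart (0.67, adjusted p = 0.412), and with the spread taken from all 16 arrays (adjusted p = 0.537). With normexp it was 0.20. The IRS2 signal was low on this array, and its probe was assigned by description alone.

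PDK4 had the widest spread of the 7 genes in the colon. Its brightest probe held 10.91, 9.83, 8.67 and 11.66 in CS and 10.48, 7.22, 9.17 and 8.83 in RPS. The groups overlapped, with RPS replicate 2 lowest of all. RPS minus CS was -1.34 (SE 0.85, adjusted p = 0.982), with an interval from -3.34 to 0.65. All 10 PDK4 probes were lower in RPS in the colon, by -0.62 to -1.57, and none passed (adjusted p = 0.938 or above). They read the same transcript on the same arrays and count as 1 observation of direction. The probe A_72_P443195 exceeded background clearly on 4 CS arrays and 1 RPS array. It passed both thresholds after scaling to the 75th percentile, among probes above background, in 1 fit of 16 arrays and without CS replicate 3 or RPS replicate 1, at -1.30 to -1.70 (adjusted p = 0.427 or above). The probe A_72_P577598, above background on all 16 arrays, passed them in 1 fit of 16 arrays (-1.54). It also passed without CS replicate 3 (-2.08) or RPS replicate 1 (-2.06). A_72_P691666, likewise above background on all 16, passed in 1 fit of 16 arrays (-1.57). For these 2 probes the adjusted p by limma was 0.663 or above. CS replicate 4, with the highest PDK4 signal, also had the highest adipocyte marker level, 3.58 against -1.87 to 0.37 on the other 7 arrays (6 genes of 6 listed). Without that array the difference was -0.88, and without RPS replicate 2 it was -0.78, the smallest of any array left out.

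In the liver, PDK4 was high and even. The CS arrays held 14.24, 14.12, 13.98 and 14.48 and the RPS arrays 13.71, 14.20, 14.13 and 14.38. The diets differed by -0.10 (SE 0.17, adjusted p = 0.930), with an interval from -0.50 to 0.30. All 10 probes lay between -0.45 and -0.07.

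DDIT4 is the mTORC1 inhibitor. In the colon its brightest probe held 12.30, 12.37, 13.57 and 13.01 in CS and 13.46, 13.43, 12.50 and 11.72 in RPS, with overlapping groups. CS replicate 3 was the highest of all 8 arrays. The diet difference was -0.03 (SE 0.47, adjusted p = 1) and -0.46 to -0.03 over the 4 probes. In the liver DDIT4 held 12.38, 12.95, 12.69 and 13.55 in CS and 13, 13.84, 13.12 and 13.15 in RPS, a difference of 0.39 (SE 0.29, adjusted p = 0.825). The 4 probes gave 0.39 to 0.68 with adjusted p from 0.686 to 0.825. Without CS replicate 4, the highest of its group, 3 of the 4 passed both thresholds at 0.61 to 0.90, with adjusted p from 0.604 to 0.684.

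TXNIP, the thioredoxin partner, held 16.48, 15.92, 14.57 and 16.43 in the colonic CS group and 16.66, 15.21, 16.59 and 15.52 in the RPS group. The lowest array of each group was the one with few epithelial and many B cell markers. RPS minus CS was 0.14 (SE 0.53, adjusted p = 0.995) and -0.13 to 0.14 over the 9 probes, with intervals within -1.46 to 1.39. In the liver, the 9 probes lay between -0.18 and 0.02, with intervals within -0.52 to 0.56. The 9 probes agreed over the colonic arrays (r 0.97 to 1.00) and less closely over the hepatic arrays (0.53 to 0.99).

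**Figure D2:**
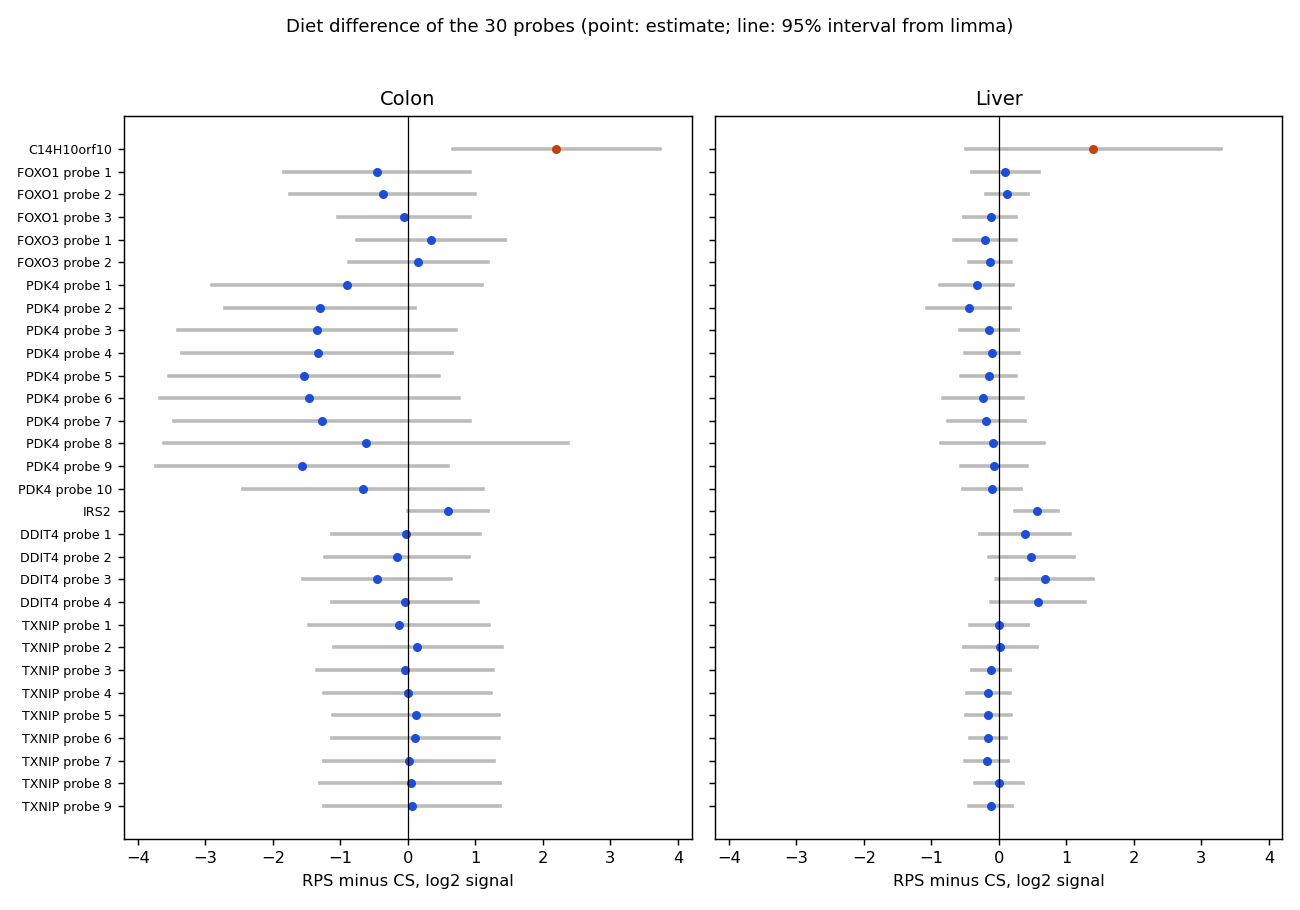
RPS minus CS in log2 signal (horizontal axes) for each of the 30 probes (rows) in colon and liver, with points for the estimate and lines for the 95% interval from limma. C14H10orf10 is drawn in red, and its colonic point, at 2.20, chose the gene. The 10 PDK4 probes lie left of 0 in the colon, at -0.62 to -1.57, and all of their intervals include 0.

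The within-diet SD of C14H10orf10 was 1.02 in the colon and 1.27 in the liver, above 90.7% and 97.2% of all probes, whose medians were 0.406 and 0.294. The other genes were quieter in the liver than in the colon. The within-diet SD of PDK4 was 1.32 in the colon and 0.252 in the liver, and that of FOXO1 0.907 and 0.186. The wide hepatic spread of C14H10orf10 was thus not shared by the genes listed with it.

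The diet difference itself was compared between colon and liver in a fit of all 16 arrays. None of the 29 probes of the 6 other genes passed an unadjusted p under 0.05 with a fold above 1.5, as 3.76% of all probes did. The smallest p was that of the DDIT4 probe A_72_P538933, at -1.13 (SE 0.58, adjusted p = 0.999), whose diet difference was -0.46 in colon and 0.68 in liver. It passed both thresholds without Liver CS replicate 4 (-1.34), Colon CS replicate 2 (-1.36) or Colon RPS replicate 2 (-1.45), with adjusted p of 0.573 or above. For PDK4 the difference was -1.28 (SE 0.92, adjusted p = 0.999), and it passed both thresholds without colonic CS replicate 3 (-1.84) or RPS replicate 1 (-1.81). For C14H10orf10 it was 0.87 (SE 1.08), given with no test.

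The genes were then compared between the tissues. Of the 29 probes of the 6 genes, 23 differed between colon and liver at an adjusted p under 0.05, as 52.9% of all probes did. The 23 include all 10 PDK4 and all 9 TXNIP probes, which read 2 transcripts, so that the count is not one of genes and is not read against that share. At the brightest probe, PDK4, TXNIP, IRS2 and FOXO3 differed, and FOXO1 and DDIT4 did not. PDK4 was the gene with the largest difference, 23.4 to 47.4 times higher in liver over its 10 probes (adjusted p = 8.83e-06 or below). At its brightest probe, the mean was 14.16 ± 0.20 in Liver CS, 14.06 ± 0.27 in Liver RPS, 10.11 ± 1.34 in Colon CS and 8.73 ± 1.37 in Colon RPS (SD, n = 4 each, 16 arrays normalized together). TXNIP was 1.97 to 2.85 times higher in colon over its 9 probes (adjusted p = 0.0179 or below). IRS2 was 1.70 times higher in liver (adjusted p = 0.000573).

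The FOXO factors and DDIT4 differed less. The 2 FOXO3 probes were 1.62 and 1.91 times higher in liver (adjusted p = 0.0462 and 0.00464), but the first, the brightest, missed the threshold when any of 10 single arrays was left out, with differences of -0.54 to -0.73, and with normexp (-0.66). The 3 FOXO1 probes ranged from -0.42 to 0.14 and none passed. For DDIT4, 1 of 4 probes passed, A_72_P538933 at -0.91 (adjusted p = 0.0170), while the brightest gave -0.34 (adjusted p = 0.360).

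C14H10orf10 was highest in Colon RPS, at 9.94 ± 0.86, then 7.69 ± 1.19 in Colon CS, 7.23 ± 1.61 in Liver RPS and 5.86 ± 0.70 in Liver CS (log2 signal, SD, n = 4 each, 16 arrays normalized together). The neighbours Colon CS and Liver RPS did not differ beyond their spread, at 5.92 to 8.50 and 5.43 to 8.64. Colon minus liver was 1.83 within the CS diet and 2.27 (SE 0.54) averaged over the diets, both given with no test because they hold arrays by which the gene was chosen.

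**Figure D3:**
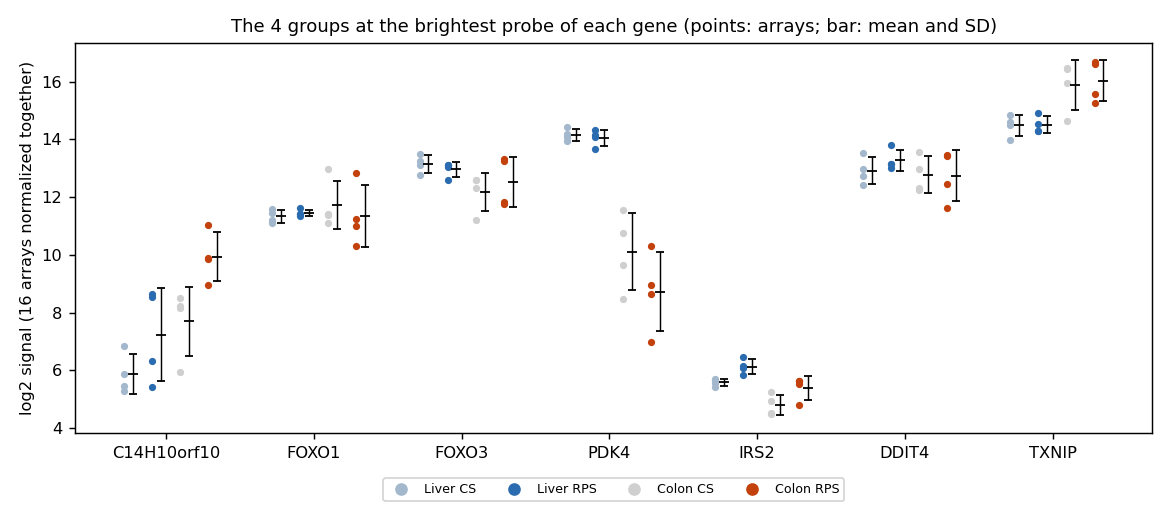
Log2 signal (vertical axis, 16 arrays normalized together) of the brightest probe of each gene in Liver CS, Liver RPS, Colon CS and Colon RPS. Points are arrays and bars the mean and SD of 4, and levels are to be compared within a gene and not between genes. PDK4 lies near 14 in both liver groups and at 8.73 to 10.11 on average in the colonic groups, and C14H10orf10 steps from 5.86 in Liver CS to 9.94 in Colon RPS.

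Whether the other genes moved with C14H10orf10 was tested over the 8 arrays of a tissue as deviations from the diet means, with an exact two-sided permutation test over all 576 pairings within diets. In the colon, Pearson's r was 0.65 for TXNIP, 0.65 for PDK4, 0.55 for FOXO3, 0.40 for IRS2, -0.19 for DDIT4 and -0.47 for FOXO1. Spearman's rho was 0.74, 0.67, 0.60, 0.48, -0.26 and -0.29 in the same order. The exact permutation p for r was 0.104, 0.116, 0.148, 0.351, 0.628 and 0.260, and that for rho 0.0642, 0.128, 0.161, 0.233, 0.585 and 0.540. Adjusted over the 12 relations of both tissues, none lay under 0.446 for r or 0.484 for rho.

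The positive correlations depended on single arrays. Without CS replicate 3, r was 0.14 for TXNIP, 0.14 for FOXO3, 0.40 for PDK4 and 0.15 for IRS2. Without RPS replicate 3 it was 0.96, 0.91, 0.78 and 0.61 in the same order, with adjusted exact permutation p of 0.0972, 0.0972, 0.0972 and 0.135. Without both CS replicate 3 and RPS replicate 1, the arrays farthest from the median of C14H10orf10, r became -0.78 for TXNIP, -0.45 for PDK4, -0.89 for FOXO3, -0.22 for IRS2, -0.09 for DDIT4 and 0.15 for FOXO1, so that each positive relation turned. Within the CS group alone r with TXNIP was 0.965 and within the RPS group 0.124. The diets did not overlap in colonic C14H10orf10, and an r pooled over them there holds the diet difference itself.

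In the liver, r with C14H10orf10 was -0.69 for IRS2, -0.51 for FOXO3, -0.48 for DDIT4, -0.37 for PDK4, -0.11 for TXNIP and -0.06 for FOXO1. Spearman's rho was -0.74, -0.10, -0.24, -0.26, -0.19 and -0.02. The exact permutation p was 0.163, 0.229, 0.248, 0.536, 0.823 and 0.844 for r and 0.0938, 0.823, 0.573, 0.615, 0.729 and 0.979 for rho, and no adjusted p lay under 0.446. None of these was past the threshold, and without RPS replicates 1 and 4 r ranged from -0.75 for PDK4 to 0.22 for TXNIP. Pooled over the diets, r was 0.16 for IRS2 and -0.60 for FOXO3 (exact permutation p = 0.697 and 0.112).

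**Figure D4:**
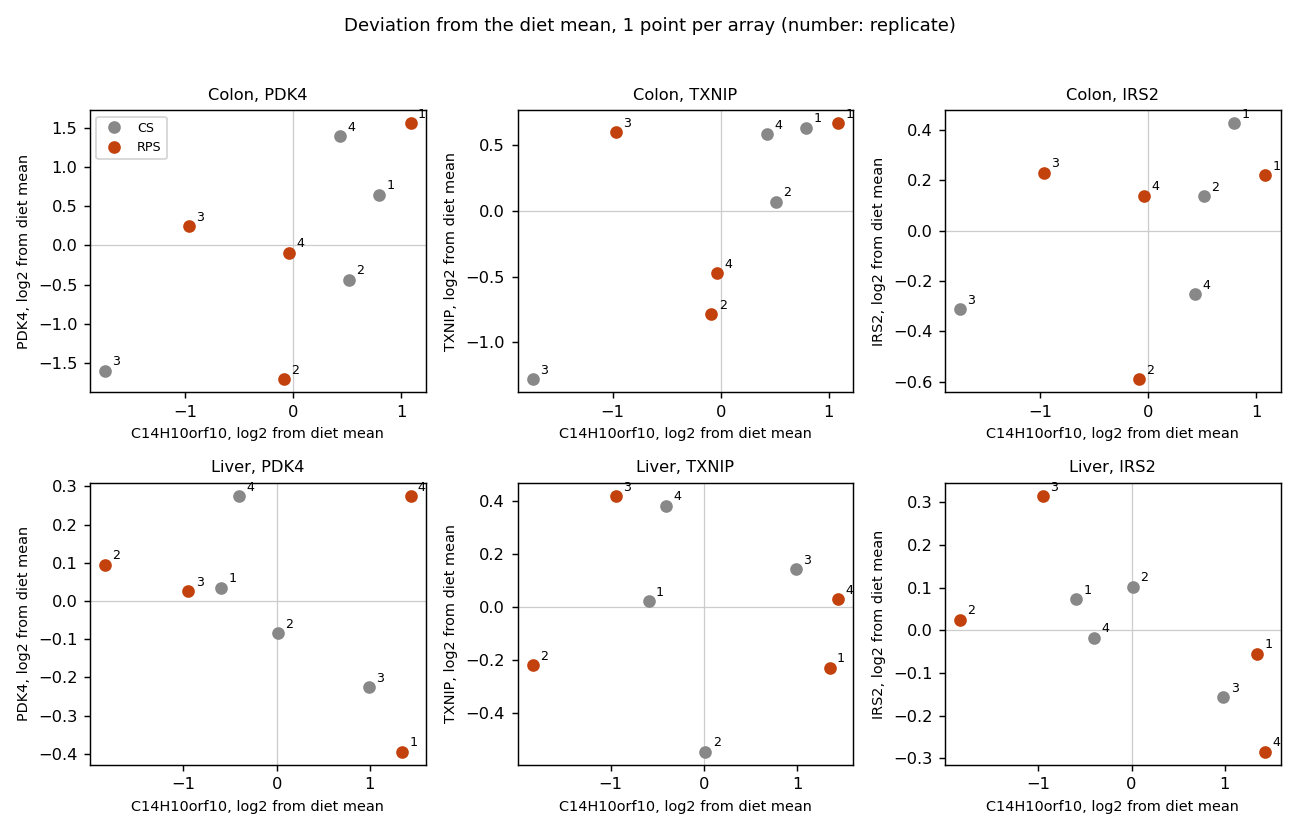
Deviation of PDK4, TXNIP and IRS2 (vertical axes) against that of C14H10orf10 (horizontal axes), both in log2 units from the mean of the diet, in colon (top) and liver (bottom). Each point is an array with its replicate number. In the colon CS replicate 3 lies far to the left in each panel and low for PDK4 and TXNIP, where r over the 8 arrays was 0.65, and in the liver r with IRS2 was -0.69.

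All 42 pairs among the 7 genes were also computed, after the values had been seen. The pairs with the highest r are given, with the most negative of the colon. In the colon, r within diets was 0.93 for FOXO3 and TXNIP, 0.89 for PDK4 and TXNIP and 0.82 for FOXO1 and DDIT4, with rho of 0.86, 0.88 and 0.83. The exact permutation p for r was 0.0312, 0.00347 and 0.0191, and 0.262, 0.146 and 0.262 after adjustment, with 0.365, 0.292 and 0.365 for rho. For each pair r was computed again without the 2 arrays farthest from the median of the gene named first. It was 0.84 without CS replicate 3 and RPS replicate 1, and 0.88 without RPS replicate 2 and CS replicate 4. For FOXO1 and DDIT4 it was 0.87 without CS replicate 3 and RPS replicate 2. Of the arrays that stood apart, the first value still holds RPS replicate 2 and the second CS replicate 3. The most negative r of the colon was -0.80, for FOXO1 and IRS2 (rho -0.62), and it was -0.10 without CS replicate 3 and RPS replicate 2. Its exact permutation p was 0.0295 for r and 0.153 for rho, and 0.262 and 0.484 after adjustment. None of the pairs passed the adjustment. In the liver, r was highest for FOXO3 and PDK4, at 0.88 (rho 0.79, exact permutation p = 0.0156 and 0.0451, adjusted 0.262 and 0.379), and 0.54 without the 2 farthest arrays.

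The genes were set against the cell type marker levels in the colon. Over the 8 colonic arrays as deviations from the diet means, r with the epithelial marker level was 0.90 for TXNIP, 0.82 for FOXO3, 0.82 for IRS2, 0.81 for PDK4, 0.70 for C14H10orf10, -0.60 for DDIT4 and -0.87 for FOXO1. With the B cell marker level r was -0.91 for IRS2, -0.84 for PDK4, -0.78 for TXNIP, -0.66 for FOXO3, -0.59 for C14H10orf10, 0.53 for DDIT4 and 0.87 for FOXO1. Adjusted over these 14 relations, which were chosen after the values had been seen, the exact permutation p was 0.0486 for IRS2 with the epithelial level and 0.0521 or above for the rest. For rho, no adjusted p lay under 0.0903. Without CS replicate 3 and RPS replicate 2, r with the epithelial level was 0.83 for IRS2, 0.75 for FOXO3, 0.54 for TXNIP, 0.07 for PDK4, 0.46 for FOXO1, 0.33 for C14H10orf10 and 0.27 for DDIT4. With the B cell level it was then -0.65 for IRS2, -0.41 for PDK4, -0.31 for TXNIP, -0.13 for FOXO3, -0.65 for C14H10orf10, -0.12 for DDIT4 and 0.12 for FOXO1.

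**Figure D5:**
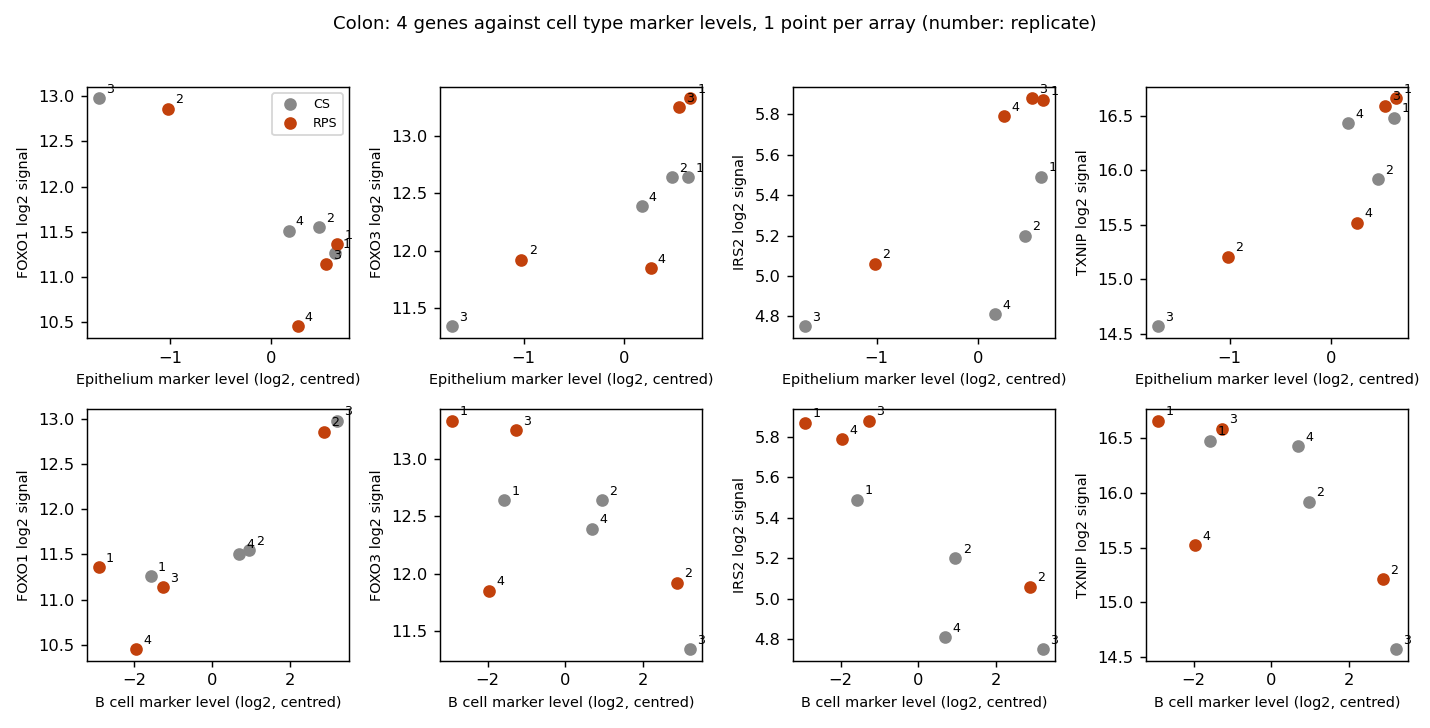
Log2 signal of FOXO1, FOXO3, IRS2 and TXNIP in the colon (vertical axes) against the mean level of 8 epithelial markers (top) and 3 B cell markers (bottom), in log2 units relative to the colonic mean. Each point is an array with its replicate number. CS replicate 3 and RPS replicate 2 lie at the left of the upper panels, at -1.71 and -1.02, and at the right of the lower ones, at 3.22 and 2.88, with high FOXO1 and low TXNIP.

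With both of these arrays left out, the diet differences of the brightest probes in the colon were -0.46 for FOXO1, 0.25 for FOXO3, -1.32 for PDK4, 0.0028 for DDIT4 and -0.02 for TXNIP, with adjusted p of 0.617 or above. Of the 29 probes of the 6 genes, the IRS2 probe was then the one past both thresholds.

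Other genes of the pathways were read at the brightest probe of each, from lists that do not hold the 7 genes. Those named below that did not pass were picked after their values had been seen. Of 36 further FOXO targets and fasting genes, 26 were found by symbol. In the colon none passed both thresholds. Of the 26, 7 were higher in RPS, beside 3548 of the 6799 genes with a symbol, and the median difference was -0.08 beside 0.01. Among those 6799 genes, 95 passed upward and 81 downward. The gluconeogenic genes PCK1 and G6PC gave -0.12 and -0.42 there, and the coactivator PPARGC1A gave 0.55, none of them past the thresholds. The G6PC probe exceeded background clearly on only 3 of the 8 colonic arrays, so that its value lies near the floor. In the liver, 12 of the 26 were higher, beside 3294 of the 6799 genes with a symbol, and the median was -0.04 beside -0.01. Of the 26, 1 passed, where 109 of all genes with a symbol passed upward and 115 downward. A single gene of 26 lies near that background.

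The FOXO target list gene past the thresholds in the liver was CPT1A, which carries fatty acids into mitochondria for oxidation and is a gene of the fasted state. Its CS arrays held 11.61, 12.37, 13.55 and 12.73 and its RPS arrays 11.16, 10.93, 10.98 and 11.67. It was lower in RPS by -1.38 (SE 0.40, adjusted p = 0.489 by limma), and CS replicate 1 lay within the range of the RPS arrays. The fasting hormone FGF21 gave -1.31 and did not pass the thresholds (adjusted p = 0.845).

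Of 29 genes of insulin and FOXO signalling, 15 were found. None passed in the colon, where 11 were higher and the median was 0.09. In the liver 5 were higher and the median was -0.03, and 1 gene, SGK1, passed, a count near the same background. SGK1 is a kinase of the AKT family that insulin and glucocorticoids activate and that phosphorylates FOXO factors. Its CS arrays held 10.45, 10.27, 10.09 and 10.43 and its RPS arrays 11.15, 11.80, 12.43 and 11.15, without overlap, and it was higher in RPS by 1.32 (SE 0.29, adjusted p = 0.349). How many of all genes showed no overlap was not counted. FOXO4, the third FOXO factor measured, gave 0.10 in colon and 0.46 in liver (adjusted p = 0.988 and 0.713), and IRS1, the sister adaptor of IRS2, -0.25 and -0.06 (adjusted p = 0.982 and 0.952).

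Pyruvate dehydrogenase, the target of PDK4, was represented by 7 genes of 9 listed, its subunits and the other PDK kinases. None passed in either tissue, with medians of 0.04 in colon and 0.10 in liver, and PDK3 was nearest in the colon at 0.31 (adjusted p = 0.919). The glucose-sensing genes and TXNIP partners were 6 of 11, with medians of 0.01 and 0.06, and ARRDC4, an arrestin that answers to glucose as TXNIP does, gave 0.22 and 0.26. The relatives of DDIT4 and IRS2 were 3 of 7, with medians of 0.36 and 0.09 and none past the thresholds. All 3 were higher in RPS in both tissues, a count too small to read a direction from. Hypoxia-responsive genes, 15 of 17, had medians of -0.07 and 0.08, and glucocorticoid-responsive genes, 6 of 13, had medians of -0.02 and 0.00, with none past the thresholds.

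Among the cell type markers, COL1A2, a collagen gene of fibroblasts, was lower in RPS in the colon (-0.72, SE 0.23, adjusted p = 0.803) and CDH1, the epithelial cadherin, in the liver (-0.80, SE 0.21, adjusted p = 0.442), as the only markers past both thresholds. A single marker per tissue lies near the share over the 6799 genes with a symbol, of which 95 passed upward and 81 downward in the colon, and 109 and 115 in the liver. CDH1 did not differ between colon and liver (0.44, adjusted p = 0.274 by limma), and 2 of the 8 epithelial markers measured were higher in RPS in the liver. COL1A2 no longer passed without RPS replicate 4 (-0.53), nor CDH1 with the spread taken from 16 arrays.

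The genes most like C14H10orf10 were named by Pearson's r over the 8 arrays of a tissue, diets together, among 5250 colonic and 5061 hepatic probes that had a symbol and exceeded background clearly on every array. In the colon these were CRHR1 (0.962), CDH15 (0.959), TMEM87A (0.955), PAPOLA (0.95) and PAFAH1B1 (0.947), with diet differences of 0.16 to 0.51. Since these r hold the diet difference by which C14H10orf10 was chosen, they favour genes higher in RPS. In the liver these were AKR7A2 (0.946), TNNI3 (0.934), PRDX3 (0.929), MMAB (0.926) and SDHB (0.915), with diet differences of 0.09 to 0.47. These are descriptions over 8 points each, chosen as the highest of those compared.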

How the data were processed

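RNA of 16 samples, 4 per diet and tissue, was hybridized by the authors to one-color Agilent porcine arrays. The deposited scanner files hold the intensity of each spot, background-subtracted by Feature Extraction 10.7 and not adjusted between arrays. The deposited value matrix holds log2 values, quantile normalized by the authors, and served as an alternative. From the intensities, control spots were dropped, outlier spots set to missing, and log2 values quantile normalized per tissue (over 16 arrays for comparisons of tissues) and averaged per probe. The number of arrays limits the precision. Diets were compared with limma 3.58.1 in R 4.3.3, adjusted by Benjamini-Hochberg over 43603 probes, with no filter on signal. Passing for diet meant p below 0.05 before adjustment together with more than 1.5-fold change, as the study did. The genes and lists were chosen with earlier results of these data known. Named were every probe of the 7 genes, up to 3 genes passing per list, direction and tissue at the brightest probe, and the 5 genes most like C14H10orf10 per tissue. Probes were named through RefSeq (Sscrofa11.1), 10388 by current symbol, 466 through synonyms, 2200 through LOC identifiers and 993 through accessions. Alternatives covered the scaling, the arrays normalized together, normexp (offset 50), outlier spots, dim probes, the methods' t-test, the variance prior, the replicate block and each array left out. The fits were tested on simulated data. Figures were drawn with matplotlib 3.10.9. Values of some single genes of the lists are not reported here.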

Additional observations from a re-analysis of the deposited data

Results flagged for a closer look

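In 4 of 120 groups of 4 arrays (30 probes in each diet and tissue), the outermost value stood apart by more than Dixon's critical value, where chance alone flags about 1 in 20 groups, or 6. C14H10orf10 was low on colonic CS replicate 3, at 6.17 (gap over range 0.859). The FOXO1 probe A_72_P452642 was high on the same array, at 9.60 (0.922). IRS2 was low on colonic RPS replicate 2, at 5.06 (0.897). These are the 2 arrays with low epithelial and high B cell marker levels. FOXO3 was low on hepatic RPS replicate 1, at 12.54 (0.884), one of the 2 hepatic arrays with high C14H10orf10.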

How the results depend on the processing

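The colonic difference of C14H10orf10 ran from 1.63 to 2.53 over all alternatives. No correlation with C14H10orf10 passed under any of them. Of the 29 other probes in the colon, 1 passed both thresholds after scaling to the 75th percentile, 1 among probes well above background, 4 in 1 fit of 16 arrays (PDK4 probes and IRS2), 0 to 2 with an array left out and 1 without CS replicate 3 and RPS replicate 2 (chosen after seeing the data). In the liver 0 to 3 of 30 passed with an array left out, and 0 to 3 of 29 for the difference between tissues. None of these had an adjusted p under 0.05, and the cause was not tested. The tissue difference was past the threshold for 23 to 26 of 30 probes. These counts include the C14H10orf10 probe, whose tissue difference is given with no test, unlike the 23 of 29 above.

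Values near 0 changed sign. In the colon, DDIT4 gave 0.06 by the 75th percentile and 0.01 by normexp (-0.26 to 0.32 with arrays left out), FOXO1 -0.85 to 0.01 and TXNIP -0.29 to 0.41. In the liver, TXNIP gave -0.27 by normexp (-0.16 to 0.15) and PDK4 -0.19 to 0.03. The difference between tissues for IRS2 was -0.03 and -0.02 by the same 2 settings (-0.06 to 0.24) and for TXNIP -0.28 to 0.38, and colon minus liver for FOXO1 was -0.05 by the 75th percentile (-0.11 to 0.31). For r with C14H10orf10 in the colon, DDIT4 gave -0.54 to 0.39, FOXO1 -0.65 to 0.03 and PDK4 -0.04 when pooled over diets. In the liver, FOXO1 gave 0.02 by normexp, 0.14 pooled and -0.37 to 0.24 with arrays left out, TXNIP 0.17 by normexp and -0.45 to 0.12, IRS2 0.16 pooled, and PDK4 -0.88 to 0.0057.

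Over all probes, 1283 passed in the colon (55.2% higher), 1968 by the 75th percentile (69.0% higher), 180 by normexp, 780 among probes above background, 2635 without RPS replicate 2 and 2385 without it and CS replicate 3. In the liver 1554, 221 and 965 passed in the main, normexp and filtered values, and for the difference between tissues 1638 and 298 in the main and normexp values and 2802 without Colon RPS replicate 2. Same-numbered arrays of the diets correlated in their deviations with r of -0.51 to 0.55 in colon and -0.16 to 0.11 in liver, and those of the tissues with 0.16 to 0.33 in CS and -0.08 to 0.07 in RPS. With the replicate number as a block in the diet fits, 0 member probes passed in colon and in liver. There 1267 and 1522 probes passed in all, and COL1A2 (-0.72) no longer passed. For the tissue fits the block took arrays of equal diet and replicate number as 1 pig (consensus correlation 0.094). Then 0 member probes passed for the difference between tissues, and 24 of 30, C14H10orf10 included, passed between tissues. The labels do not say whether colon and liver arrays came from the same pigs, and the main fits treat the arrays as independent. With 4 arrays per group, on 1 slide each, small differences were not detectable.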

Other observations

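Both probes with the DDIT4 sequence printed above gave nearly the same signal on 15 of 16 arrays, within 0.11 on the log2 scale. On hepatic RPS replicate 3 they gave 13.12 and 13.73, a gap of 0.61 between spots of 1 sequence on 1 array. The diet difference of DDIT4 in the liver was 0.39 at the first of these probes and 0.58 at the second. The first is the brightest probe and stood for DDIT4 in the correlations. On hepatic RPS replicates 1 to 4, A_72_P489452 held 10.30, 11.15, 10.90 and 10.32, and A_72_P538933 held 7.55, 8.27, 8.40 and 7.48. Which of the spots was off was not tested.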
